A study of Mus musculus with 4 samples.

Results

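The 9 genes described here encode the enzymes that write and remove DNA methylation and the proteins that bind it: Dnmt1, Uhrf1, Dnmt3a, Dnmt3b, Tet1, Tet2, Tet3, Mbd1 and Mbd2. They were taken by symbol from the 56239 genes of the count table, and all 9 matched 1 row each. The cells were double-positive (DP) thymocytes, which carry both CD4 and CD8, isolated by sorting from mice of C57BL/6 background and profiled by poly(A) RNA-seq. The 2 WT libraries came from mice with loxP-flanked Chaf1b alleles and no Cre (labelled CHAF1bfloxp/floxp), and the 2 KO libraries from mice with the same alleles plus Cd4-cre. Cd4-cre is a Cre recombinase transgene under control of Cd4, so deletion follows the onset of Cd4 transcription, and the KO group differs from WT in the transgene as well as in the deletion. The protein made from Chaf1b belongs to the CAF-1 chaperone, which deposits histones H3 and H4 behind the replication fork.

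In mammals most CpG dinucleotides carry a methyl group on the cytosine, and each round of replication leaves the new strand unmethylated. UHRF1 binds such hemimethylated sites and recruits DNMT1, which copies the mark, while DNMT3A and DNMT3B place it on unmethylated sites. TET enzymes oxidise methylcytosine, after which it is lost by replication or cut out and replaced, and MBD1 and MBD2 bind methylated CpG and bring in repressor complexes. In thymocytes these activities are known for keeping lineage genes such as Cd4 and Cd8 in heritable on or off states.

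In these DP thymocytes the maintenance pair was abundant, Dnmt3a was the de novo enzyme with most of the reads, Tet3 was the most abundant TET transcript and Dnmt3b had the fewest reads, at most 82 per library. None of the 9 genes passed the test between genotypes. The fitted KO minus WT differences of the 7 writers and erasers were above 0 (Uhrf1 was -0.0082 with library totals in place of TMM scaling) and those of both readers below 0, with Dnmt3a (log2 0.42) and Mbd1 (log2 -0.41) at the ends.

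Total counts were 21068760 to 27369874 per library. By Xist, with 47301 to 47368 counts in replicate 1 and 8 to 12 counts in replicate 2, each genotype had 1 female and 1 male library. Each difference is therefore also given within the female pair and within the male pair. Chaf1b, the targeted gene, had 27.9 and 31.7 CPM (counts scaled to library size with TMM factors, per 1e6) in WT and 12.2 and 14.8 CPM in KO. It differed by -1.14 ± 0.16 on the log2 scale (SE; edgeR adjusted p = 0.267). When replicate number entered the model, referred to below as the sex-term fit, the value was -1.15 ± 0.17 (edgeR adjusted p = 0.0172). Sex and replicate number coincide in these libraries, so this term cannot separate sex from any other difference between replicates 1 and 2. Reads over Chaf1b exons outside the deleted part can remain in its count. Mitochondrially encoded genes held 3.30% and 2.03% of the counts in KO replicates 1 and 2, against 1.33% and 1.45% in WT. Ribosomal protein genes held 4.94% and 3.59% in KO and 2.86% and 2.91% in WT. Both KO libraries thus lay above both WT libraries in these shares, with KO replicate 1 the highest. All 14 listed DP markers were detected in every library, with Cd4 at 40982 to 53502 counts and Rag1 at 131464 to 232190 counts.

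The summed level of 7 B cell markers was 407 to 474 CPM in WT and 464 CPM in both KO libraries, nearly all of it Ighm, while Ms4a1 and Pax5 had at most 5 counts in any library. The other tested markers of that list had log2 differences below 0 that did not pass, Cd79a with 27 and 60 counts in WT and 16 and 19 in KO (-1.04) and Igkc with 26 and 14 counts in WT and 13 and 5 in KO (-0.96). The 10 myeloid and dendritic markers summed to 11.4 to 11.98 CPM in WT and 9.26 to 9.58 CPM in KO. Their members disagreed, and the median log2 difference of the 5 tested was -0.02. Of these, 2 were lower in both KO libraries than in both WT libraries (28.4% of all tested genes). Csf1r alone was higher in both (27.9% of all tested genes), with 14 and 23 counts in WT and 58 and 29 in KO. The 7 erythroid markers summed to at most 2.03 CPM, with Hba-a2 at 0 counts in all libraries. The 9 epithelial and stromal markers stood at 151 to 170 CPM in WT and 160 to 180 CPM in KO, mostly Pecam1, with Foxn1 at 0 or 1 count. Summed levels of the 9 NK and gamma-delta markers were 98.9 to 117 CPM in WT and 130 to 162 CPM in KO, with Ncr1 at 0 counts throughout. Of the 6 tested markers of that list 5 were higher in both KO libraries than in both WT libraries (27.9% of all tested genes). The list median was 0.77, and some of these markers rest on few counts, such as Trgv2 (5 and 3 in WT, 19 and 23 in KO). Gzma, a cytotoxic granule protease, rose in the sex-term fit, from 22.4 and 17.6 CPM in WT to 54.5 and 31.2 CPM in KO (edgeR adjusted p = 0.0194). The 8 markers of mature single-positive cells summed to 235 to 255 CPM in WT and 304 to 398 CPM in KO. The same fit called 1 gene higher in the stromal list, Pdgfrb (40 and 47 counts in WT, 173 and 87 in KO), and 1 in the single-positive list, Foxo1 (52.2 and 47.6 CPM in WT, 107 and 61.2 CPM in KO). No gene of the 7 marker lists fell in it, while 1.01% of all tested genes were called higher and 2.2% lower. The part of these lists in the differences below was not tested. In bulk RNA fewer cells of a type and less RNA per cell cannot be told apart.

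Promoter sequences are shown for the pair with the highest writer levels and for the pair of de novo writers, whose levels differ most. From the RefSeq table (GRCm38.p6) 12 windows were read for 7 of the 9 genes, and those of Mbd1 and Mbd2 are not reported here. Each window ran from 250 bases before to 50 bases after an annotated transcript start. The search used the letters TTTGGCGC, TTTCCCGC, TTTCGCGC and TTTGCCGC, which are forms of the E2F motif found in genes of the replication programme, on both strands. At least 1 form lay in 2.26% of all 32851 windows, in 1 of the 3 windows of Dnmt1 and 1 of the 2 windows of Uhrf1, and in no window of the 5 other genes. The Dnmt1 window at chr9:20952574-20952873 (minus strand) held the 2 forms TTTCGCGC, read on the opposite strand at position -219 from the start, and TTTGGCGC at position 34. The Uhrf1 window at chr17:56304063-56304362 (plus strand) held TTTCGCGC at position -185. Capitals mark these letters, and a match describes the sequence without showing that a factor binds there. Both genes also have annotated starts farther upstream, Dnmt1 at 20952979 and 20959888 and Uhrf1 at 56303337. The matches lie downstream of those starts.
Dnmt1: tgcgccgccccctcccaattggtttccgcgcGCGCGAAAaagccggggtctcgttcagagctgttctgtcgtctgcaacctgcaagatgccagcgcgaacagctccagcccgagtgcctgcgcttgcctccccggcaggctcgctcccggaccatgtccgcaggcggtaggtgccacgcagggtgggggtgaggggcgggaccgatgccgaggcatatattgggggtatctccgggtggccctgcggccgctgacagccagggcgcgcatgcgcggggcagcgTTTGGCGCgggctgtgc
Uhrf1: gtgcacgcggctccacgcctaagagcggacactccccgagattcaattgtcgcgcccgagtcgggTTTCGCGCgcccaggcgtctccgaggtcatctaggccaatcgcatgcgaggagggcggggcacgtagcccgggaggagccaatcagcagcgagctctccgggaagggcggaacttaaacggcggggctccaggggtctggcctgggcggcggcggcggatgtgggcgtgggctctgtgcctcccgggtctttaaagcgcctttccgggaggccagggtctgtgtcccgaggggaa

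The de novo writers both start in CpG-rich sequence. The Dnmt3a window at chr12:3806730-3807029 (plus strand) held 46 CpG dinucleotides, and the other windows of Dnmt3a held 47 and 18. The Dnmt3b window at chr2:153649199-153649498 (plus strand) held 30, and the median over all windows was 7. Capitals mark each CpG.
Dnmt3a: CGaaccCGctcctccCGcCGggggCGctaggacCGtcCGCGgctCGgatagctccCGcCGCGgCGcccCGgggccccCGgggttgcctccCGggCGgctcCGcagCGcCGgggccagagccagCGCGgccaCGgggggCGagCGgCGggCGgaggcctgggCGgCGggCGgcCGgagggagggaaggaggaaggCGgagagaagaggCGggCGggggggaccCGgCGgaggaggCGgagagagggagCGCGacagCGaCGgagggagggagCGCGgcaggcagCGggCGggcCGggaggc
Dnmt3b: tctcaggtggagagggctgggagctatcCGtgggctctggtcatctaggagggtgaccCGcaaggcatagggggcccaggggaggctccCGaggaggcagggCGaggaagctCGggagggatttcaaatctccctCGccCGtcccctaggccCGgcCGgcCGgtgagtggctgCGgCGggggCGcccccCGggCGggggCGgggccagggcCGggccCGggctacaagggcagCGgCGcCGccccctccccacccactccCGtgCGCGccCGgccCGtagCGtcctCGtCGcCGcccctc
The remaining starts ranged from the single Tet2 window with 57 CpG, more than in 99.8% of all windows, to the most upstream Dnmt1 window with 2. Tet3 had 22 and Tet1 17.

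Levels can be compared between genes only per length, here as CPM per kilobase of the deposited exon length. In WT the order was Uhrf1 (79.8 ± 4.16, SD, n = 2), Mbd2 (67.2 ± 1.75), Dnmt1 (56.9 ± 1.05), Mbd1 (30.7 ± 0.0897), Tet3 (15.1 ± 1.34), Dnmt3a (14.1 ± 0.376), Tet1 (4.12 ± 0.137), Tet2 (2.15 ± 0.0786) and Dnmt3b (0.440 ± 0.179). Neighbours in that order had WT libraries that did not overlap, except Tet3 and Dnmt3a. In KO, Mbd2 (61.9 and 61.0) and Dnmt1 (64.5 and 57.3) also overlapped, and in KO replicate 1 Dnmt3a (21.8) and Tet3 (21.8) stood above Mbd1 (21.1). The deposited length merges the exons of all annotated transcripts. With the longest coding transcript of GENCODE M21 as the length instead, Mbd2 (111 ± 2.88) stood above Uhrf1 (94.8 ± 4.95) and Dnmt3a (24.2 ± 0.646) above Tet3 (23.1 ± 2.06) in WT, and the other genes kept their places.

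**Figure D1:**
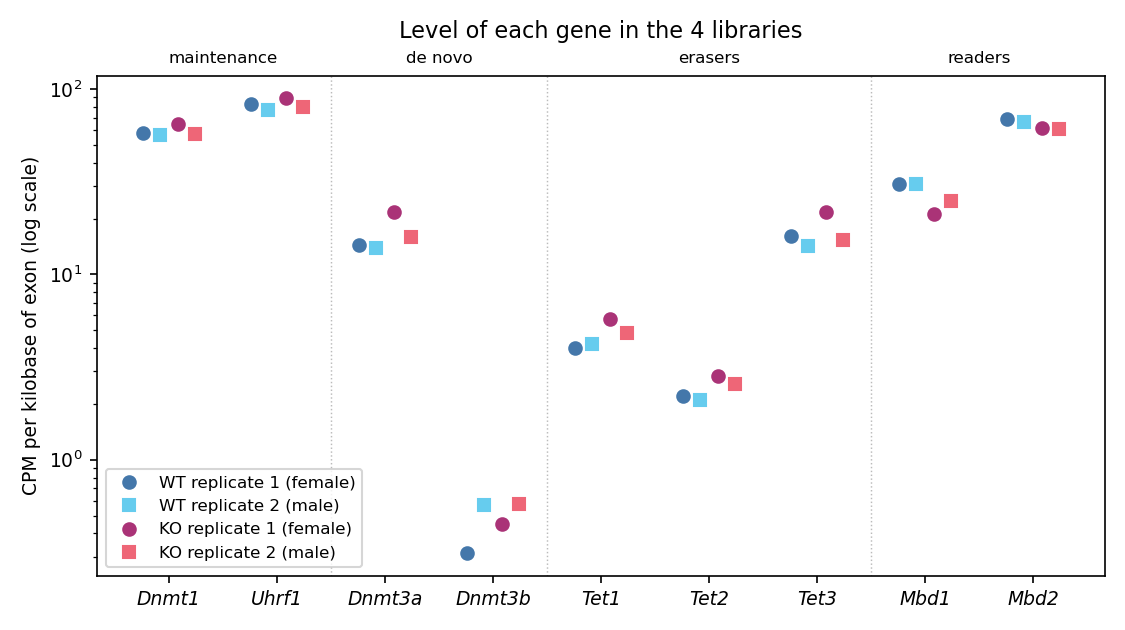
Points give the level of each gene in CPM per kilobase of exon (vertical axis, log scale) in the 4 libraries, with circles for female and squares for male cells. Levels ran from 0.314 for Dnmt3b in WT replicate 1 to 88.8 for Uhrf1 in KO replicate 1, and the genotypes lay close together for Dnmt1 and Uhrf1.

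In the fit of all libraries the maintenance writers had the fitted differences nearest to 0, which did not hold in each pair or without KO replicate 2. Dnmt1 (ENSMUSG00000004099, chromosome 9, minus strand, 20907209 to 20959888, GRCm38), the methyltransferase that copies the mark at the fork, had 425 and 414 CPM in WT replicates 1 and 2 and 475 and 422 CPM in KO. The higher WT library lay above the lower KO library, so the groups overlapped. The fitted log2 difference was 0.10 ± 0.13 (SE; edgeR adjusted p = 0.713), and 0.0151 without KO replicate 1. The 95% interval of -0.22 to 0.42 leaves room for a change between 0.858-fold and 1.34-fold. Uhrf1 (ENSMUSG00000001228, chromosome 17, plus strand, 56303321 to 56323486), the adaptor that reads hemimethylated CpG, had 352 and 327 CPM in WT and 378 and 339 CPM in KO, again overlapping. Its log2 fold change was 0.08 ± 0.13 (edgeR adjusted p = 0.773; 95% interval -0.24 to 0.39), and with library totals in place of TMM factors it was -0.0082. The level of Uhrf1 relative to Dnmt1, per kilobase, was 1.44 and 1.37 in WT and 1.38 and 1.39 in KO.

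Both maintenance genes follow the cell cycle, so lists of dividing cells were read beside them. The 34 S-phase genes summed to 2870 and 2831 CPM in WT and 3214 and 3010 CPM in KO. The 24 mitotic genes summed to 3766 and 3565 CPM in WT and 5333 and 3772 CPM in KO, so KO replicate 1 was highest in both lists and in Dnmt1 and Uhrf1. In the sex-term fit 1 of the 34 S-phase genes rose and none fell (all tested genes: 1.01% higher and 2.2% lower). It was the polymerase gene Pola1 (log2 difference 0.64 ± 0.15 SE, edgeR adjusted p = 0.0425). The list median was 0.07 in the fit without a sex term. In that edgeR fit 7 S-phase genes were higher and 0 lower at unadjusted p under 0.05 (8.14% and 8.69% of all tested genes). Both KO libraries were above both WT libraries for 16 S-phase genes and below for 7 (27.9% and 28.4% of all tested genes). No mitotic gene passed in either fit, and Mki67, the proliferation marker, had 882 and 792 CPM in WT and 1862 and 953 CPM in KO (log2 difference 0.75, and 0.19 without KO replicate 1). The median of the mitotic list was 0.04. Both KO libraries were above both WT libraries for 7 mitotic genes and below for 8 (27.9% and 28.4% of all tested genes). The part of these lists in the values of Dnmt1 and Uhrf1 was not tested. Of 10 measured partners of maintenance methylation, among them the UHRF1-stabilising deubiquitinase Usp7 (log2 fold change -0.16) and the replication clamp Pcna (-0.13), none passed in either fit. Without KO replicate 1 Pcna was at -0.05 and Usp7 at -0.26, and without KO replicate 2 Usp7 was at -0.07. The median of these partners was 0.05, against -0.0026 over all 15070 tested genes.

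Of the de novo writers, Dnmt3a showed the larger difference, and the interval of Dnmt3b was the widest of the 9 genes. Dnmt3a (ENSMUSG00000020661, chromosome 12, plus strand, 3806007 to 3914443) had 239 and 230 CPM in WT and 363 and 265 CPM in KO. Both KO libraries were above both WT libraries, but the KO libraries lay farther apart (SD 69.0 CPM) than in WT (SD 6.25 CPM). The log2 fold change was 0.42 ± 0.17 (SE; edgeR adjusted p = 0.296), with 0.60 between the female libraries and 0.21 between the male ones. Counts join the long and short isoforms of Dnmt3a, and 133 of its 16642 exon bases are shared with the antisense gene Dnmt3aos, where reads were left out. Dnmt3b (ENSMUSG00000027478, chromosome 2, plus strand, 153649450 to 153687730) had 38 and 82 counts in WT and 52 and 64 in KO. These are 1.604 CPM (95% exact Poisson interval 1.13 to 2.20, counting error only) and 2.89 CPM (2.30 to 3.59) in WT, and 2.29 CPM (1.71 to 3.01) and 2.96 CPM (2.28 to 3.78) in KO. The WT libraries lay at the lowest and the third place, so the groups overlapped, and the counting intervals of the WT libraries did not meet. The fitted log2 difference was 0.22 ± 0.39 (SE; edgeR adjusted p = 0.791). It was -0.14 without WT replicate 1, 0.71 without WT replicate 2, 0.39 without KO replicate 1 and 0.02 without KO replicate 2. Its 95% interval of -0.73 to 1.17 spans 0.603-fold to 2.24-fold. Dnmt3b made up 2.02% to 3.94% of the de novo writers' summed level per kilobase in the 4 libraries.

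The 3 TET genes, which encode the dioxygenases that oxidise methylcytosine, had fitted differences of similar size. Tet1 (ENSMUSG00000047146, chromosome 10, minus strand, 62804570 to 62908996) had 62.2 and 65.2 CPM in WT and 88.6 and 74.2 CPM in KO, with a log2 difference of 0.35 ± 0.13 (SE; edgeR adjusted p = 0.281). Tet2 (ENSMUSG00000040943, chromosome 3, minus strand, 133463679 to 133545139) had 37.2 and 35.3 CPM in WT and 47.4 and 42.9 CPM in KO, with a log2 difference of 0.32 ± 0.12 (edgeR adjusted p = 0.277). For Tet1 and Tet2 both KO libraries were above both WT libraries. Tet3 (ENSMUSG00000034832, chromosome 6, minus strand, 83362373 to 83459084) had 268 and 236 CPM in WT and 364 and 256 CPM in KO, so that KO replicate 2 lay below WT replicate 1. Its log2 fold change was 0.30 ± 0.19 (edgeR adjusted p = 0.434). The female and male pairs differed by 0.51 and 0.19 for Tet1, 0.35 and 0.28 for Tet2 and 0.44 and 0.12 for Tet3. Without KO replicate 1 the log2 fold change of Tet3 was 0.03, that of Tet1 0.23 and that of Dnmt3a 0.18. Tet3 held 72.02% and 69.1% of the summed TET level per kilobase in WT and 71.8% and 67.6% in KO, with Tet1 at 18.1% to 21.2% and Tet2 at 9.27% to 11.2% in the 4 libraries. The composition of the TET pool thus overlapped between genotypes for each of its members.

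The readers had fitted values below WT. Mbd1 (ENSMUSG00000024561), on chromosome 18, encodes a methyl-CpG binder that recruits the H3K9 methyltransferase SETDB1 through its partner ATF7IP. It had 208 and 207 CPM in WT and 143 and 169 CPM in KO. The WT libraries differed by less than 1 CPM (SD 0.608) and both KO libraries were below them (SD 18.5). The log2 fold change was -0.41 ± 0.12 (SE; edgeR adjusted p = 0.267; 95% interval -0.71 to -0.11), with -0.54 between female and -0.29 between male libraries. Mbd2 (ENSMUSG00000024513), on the same chromosome, encodes the reader that joins the NuRD remodelling and deacetylase complex. It had 220 and 212 CPM in WT and 199 and 196 CPM in KO, without overlap. The log2 difference was -0.13 ± 0.11 (SE; edgeR adjusted p = 0.536), and the pairs differed by -0.15 and -0.11. Mbd1 made up 31.0% and 31.7% of the readers' summed level per kilobase in WT and 25.5% and 29.0% in KO. Set against Mbd1 per kilobase, Dnmt3a stood at 0.467 and 0.451 in WT and at 1.03 and 0.637 in KO. These genes lie at the ends of the fitted differences, and neither passed.

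**Figure D2:**
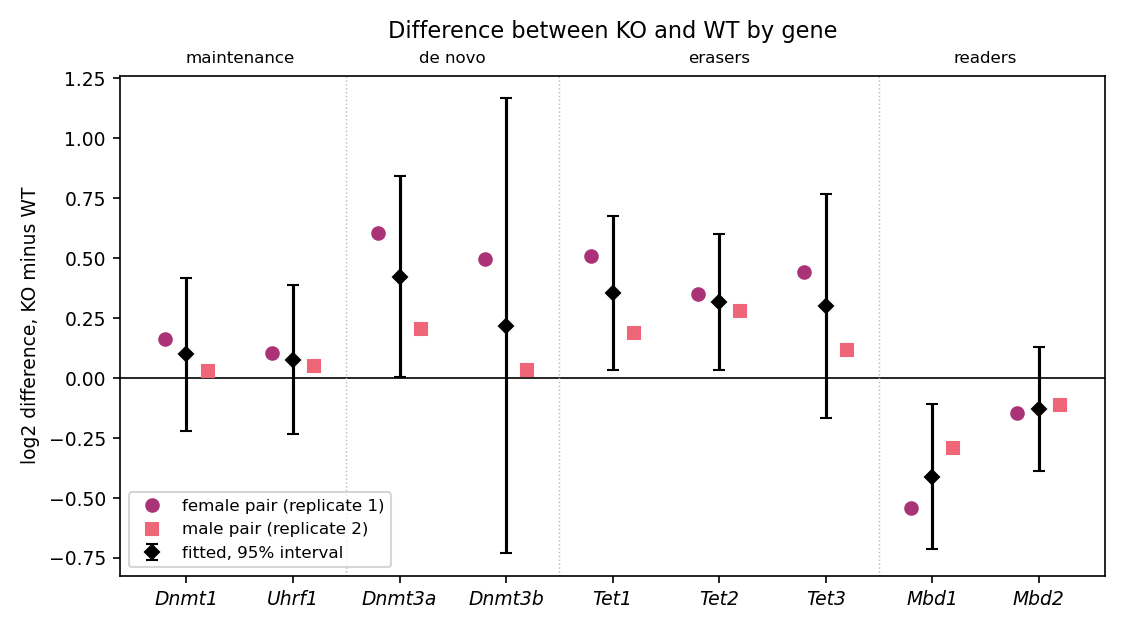
Diamonds give the fitted log2 difference KO minus WT (vertical axis) of each gene with its unadjusted 95% interval, circles the female pair and squares the male pair. All 9 genes had the same sign in both pairs, and for each of the 9 the female pair lay farther from 0.

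Counts over the 9 genes were read against all 15070 tested genes. In the edgeR test without a sex term 0 of the 9 were called (0.00664% of all tested genes were), 4 had an unadjusted p under 0.05 and limma-voom called 0 of the 9. The sex-term fit also called 0 of the 9 (3.21% of all tested genes, 1.01% higher and 2.2% lower), as did DESeq2 (4.59%) and edgeR without a filter on low counts (5.63%). The 4 were Dnmt3a, Tet1 and Tet2, higher in KO (8.14% of all genes), and Mbd1, lower in KO (8.69%). Both KO libraries were above both WT libraries for 3 genes, Dnmt3a, Tet1 and Tet2, as for 27.9% of all genes. They were below for 2, Mbd1 and Mbd2, as for 28.4% of all genes. Both shares are near those of all genes. In both pairs 7 of the 9 were higher in KO (35.5% of all genes) and 2 lower (36.7%). Without KO replicate 2 edgeR called 5 of the 9, Dnmt3a, Tet1, Tet2 and Tet3 as higher and Mbd1 as lower, in a comparison that called 32.3% of all genes. There KO is a single library whose spread is taken from the WT libraries.

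The long members share their length class with genes whose differences were mostly above 0. Over all 15070 tested genes, which are not independent replicates, log10 exon length and log2 difference had a Pearson r of 0.054. The class medians were 0.02 under 1 kb, -0.06 at 1 to 2 kb, -0.05 at 2 to 4 kb, 0.0025 at 4 to 8 kb and 0.09 at 8 to 15 kb. Dnmt3a and the TET genes have 15.5 to 16.9 kb of exon sequence, and over all 314 tested genes with 15 kb or more the median log2 difference was 0.20, with 74.8% above 0. Between female libraries that median was 0.32 and between male ones 0.07. Relative to the median of their length class Dnmt3a stood higher by 0.22, Tet1 by 0.15, Tet2 by 0.11 and Tet3 by 0.10. They lay above 79.3%, 69.7%, 65.6% and 62.4% of that class, so only Dnmt3a was outside its middle 50% of values. Mbd1, in the class of 4 to 8 kb with 4830 genes, was lower by 0.41 than the median of that class and above 14.4% of it. The part of length in the differences was not tested.

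**Figure D3:**
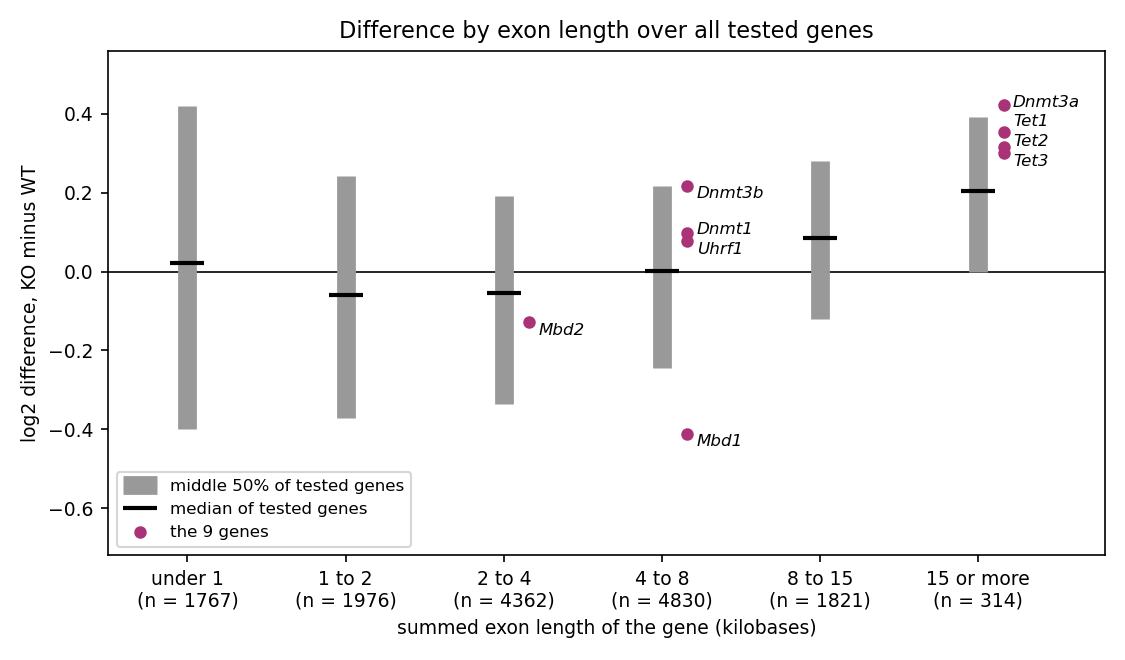
Grey bars give the middle 50% and black lines the median of the log2 difference KO minus WT (vertical axis) over all tested genes in 6 classes of summed exon length (horizontal axis, kilobases), and points the 9 genes. The median was 0.20 in the longest class, where Dnmt3a and the 3 TET genes lie at 0.30 to 0.42.

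Among genes that feed or complete the TET reaction, the glycosylase genes Neil1 and Neil3 were lower in KO by the sex-term fit. No cofactor gene passed in either edgeR fit. Of 11 measured genes for TET cofactor metabolism and partners, 9 were lower in KO in both pairs and 1 higher (all tested genes: 36.7% and 35.5%), with a median log2 fold change of -0.35. None of the 11 passed in either fit. Ogt, the glycosyltransferase that binds TET proteins, had 1045 and 1057 CPM in WT and 680 and 794 CPM in KO. Its log2 difference was -0.51 ± 0.15 SE (edgeR adjusted p = 0.267, or 0.167 with the sex term). DESeq2 called it (adjusted p = 0.0327), as did edgeR without a filter on low counts (adjusted p = 0.029). Cxxc1, a binder of unmethylated CpG, had a log2 fold change of -0.34, and -0.15 without KO replicate 1. The DNA damage genes Gadd45a, Gadd45b and Gadd45g, chosen after their values were seen, had -0.62, -1.16 and -0.93. Among 10 measured base excision genes those 2 fell and none rose (all tested genes in that fit: 2.2% lower and 1.01% higher). Neil1 had 83.7 and 89.7 CPM in WT and 43.0 and 64.3 CPM in KO (log2 difference with the sex term -0.72 ± 0.15, SE; edgeR adjusted p = 0.0336, or 0.267 without the term). Without KO replicate 1 and without the sex term Neil1 was at -0.43, against -0.69 in all libraries. Neil3 had 61.0 and 56.4 CPM in WT and 39.2 and 36.5 CPM in KO (with the sex term -0.63 ± 0.14; edgeR adjusted p = 0.0371, or 0.267 without it). Tdg, which excises oxidised methylcytosine directly and was named after its value was seen, had a log2 fold change of 0.17. The list's median was -0.03.

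Mat2a makes S-adenosylmethionine, the methyl donor of every DNMT. It had 288 and 270 CPM in WT and 177 and 186 CPM in KO. These groups did not overlap, and the log2 fold change of -0.62 ± 0.11 (SE) did not pass (edgeR adjusted p = 0.267, or 0.0527 with the sex term). DESeq2 called it (adjusted p = 0.00664), and over all 17 alternatives its adjusted p ranged from 0.000127 to 0.848. None of the 11 measured genes of that cycle passed in either edgeR fit, and their median was -0.12.

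Partners of the readers went in both directions. Of 10 listed genes (other MBD-family genes, zinc-finger readers and MBD1 partners), 1 rose in the sex-term fit and none fell (all tested genes: 1.01% higher and 2.2% lower). It was Zbtb38, a zinc-finger reader, at 23.3 and 26.2 CPM in WT and 46.2 and 36.5 CPM in KO (log2 difference with the sex term 0.73 ± 0.17, SE; edgeR adjusted p = 0.0417, or 0.267 without it). The MBD1 partners, named after their values were seen, stood on opposite sides, with Setdb1 at -0.27 and Atf7ip at 0.50. Mbd3, the other MBD subunit of NuRD and also named afterwards, had -0.36. None of the 12 measured NuRD subunits passed, with the remodeller Chd4 at 0.45 (0.13 without KO replicate 1), Mta2 at 0.02 (-0.08 without KO replicate 1) and a median of 0.11. The sex-term calls of Zbtb38, Neil1, Neil3 and Pola1 were lost with library totals and with a robust dispersion estimate in edgeR. Over the 5 versions of the sex-term fit, DESeq2 among them, the adjusted p ranged from 0.0301 to 0.0917 for Zbtb38, 0.0217 to 0.0552 for Neil1, 0.0277 to 0.0667 for Neil3 and 0.0317 to 0.095 for Pola1.

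**Figure D4:**
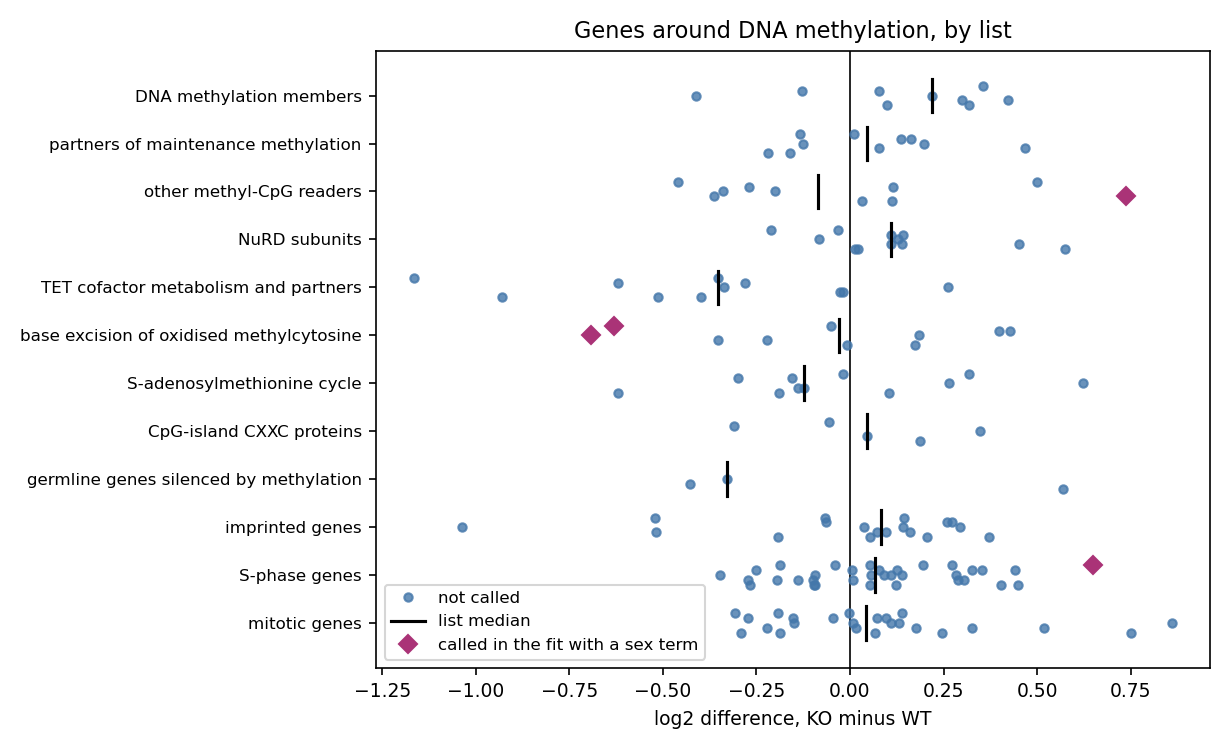
Each point is a tested gene with its log2 difference KO minus WT (horizontal axis), arranged by list (vertical axis), with black lines at list medians and diamonds for genes called in the sex-term fit. The 4 diamonds are Zbtb38 and Pola1 above 0 and Neil1 and Neil3 below 0.

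Transcripts that depend on DNA methylation for silencing stayed mostly at or near 0 counts in both genotypes. Of 23 germline genes of this kind 13 had 0 counts in all 4 libraries, which allows up to 3 counts each or 0.110 to 0.142 CPM, and only 3 passed the filter on low counts. Brdt, the testis bromodomain gene, was the most abundant at 36.0 and 31.6 CPM in WT and 23.9 and 26.3 CPM in KO (log2 fold change -0.43, edgeR adjusted p = 0.267). Tex11, an X-linked meiotic gene, had 41 and 48 counts in the male libraries and 0 in both female libraries. Dazl, chosen after its counts were seen, had 3 to 5 counts per library. Of 18 measured imprinted genes none passed in either fit, with Igf2r at 0.37 (0.16 without KO replicate 1), Nap1l4 at 0.04 (0.0015 without WT replicate 1) and a median of 0.08. None of the 5 measured CXXC proteins that bind unmethylated CpG islands passed, Kmt2a being at 0.35 (-0.05 without KO replicate 1) and Kmt2b at -0.31 (-0.19 without WT replicate 1).

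Genes were also ranked by how closely they followed the leading member of each role over the 4 libraries. Likeness was the root-mean-square difference of log2 CPM, each gene centred on its own mean, over 9221 protein-coding genes of at least 5 CPM. The nearest to Uhrf1 were Nufip1 (0.0024), Cnot10 (0.0069) and Mroh1 (0.0096), and 419 genes lay within 0.05. Nearest to Dnmt3a were Slc39a1, Pdlim5 and Naa15 (0.0089 to 0.011), and 204 genes lay within 0.05. Ube2h, Pag1 and Ssh2 were nearest to Tet3 (0.012 to 0.017) and Phactr4, Fam78a and Mysm1 to Mbd2 (0.0041 to 0.0086). With 4 libraries such patterns are shared by many genes.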

How the data were processed

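The table holds raw fragment counts per gene, which the authors made with featureCounts 1.6.3 over exons of the Ensembl 98 annotation (GRCm38), per the file headers. The submitters' processing notes name HISAT2 as well as Trim Galore 0.5.0, and give featureCounts as 1.6.4. By the command in the file headers, no strand option was set and reads shared by several genes were not counted. Gene lengths are the authors' deposited summed exon bases. Symbols came from GENCODE M21, which matched 98.1% of IDs.

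The low-count filter filterByExpr of edgeR 4.0.16 (R 4.3.3) left 15070 genes, all 9 members among them. KO was compared with WT by edgeR's quasi-likelihood test on TMM-scaled libraries, and p-values were adjusted by Benjamini-Hochberg over all of these genes (threshold 0.05). SE is the log2 fold change divided by the square root of F. The sex-term fit adds the replicate number, leaving 1 residual degree of freedom in place of 2. Pair differences are log2 CPM with a prior count of 2. Code was tested on simulated data. No label ties a library to a number of mice, so p-values cover only variation among the 4 libraries, which within a genotype includes sex.

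Members and lists were chosen with earlier results of these data known. From each pathway list, genes were named if called in either fit (up to 4), or else as the 2 with the highest CPM; others are marked. Marker genes of other cell types were named after their values were seen. The 17 alternatives included limma 3.58.1 and DESeq2 1.42.0. Poisson intervals and floors cover counting error only, while intervals of log2 differences come from the edgeR fit and include variation between libraries.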

Additional observations from a re-analysis of the deposited data

Results flagged for a closer look

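The NuRD subunit gene Mta2 had opposite signs in the sexes. Its log2 difference KO minus WT was 0.0928 between the female libraries and -0.0559 between the male libraries. Each sex has 1 library per genotype, and whether the sexes differ was not tested.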

How the results depend on the processing

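With 17 alternatives, Dnmt1, Dnmt3a, the 3 TET genes, Mbd1 and Mbd2 kept their direction in all of them. Uhrf1 turned to -0.0082 with library totals, to -0.0075 with the replicate block and library totals and ran from -0.0004 to 0.1509 with a library left out (lowest without KO replicate 1), and Dnmt3b ran from -0.1382 (without WT replicate 1) to 0.7124. No alternative other than leaving out KO replicate 2 called any of the 9 genes, so the number of them called ran from 0 to 4 higher and from 0 to 1 lower with a library left out. Over all genes, edgeR called 1 higher and 0 lower. The replicate block called 152 higher and 331 lower, with library totals 26 and 119, with DESeq2 125 and 259, with robust dispersion 29 and 47, and without mitochondrial and ribosomal protein genes 188 and 448; the last 3 were chosen after seeing the data. Deviations of same-numbered libraries from their group means correlated at 0.472 over genes, and the labels do not say that a number marks a pair. DESeq2 without the block called 210 and 310, edgeR without a filter 627 and 838, and a minimum of 10 counts in every library left 0 higher and 0 lower. With a library left out the calls ran from 1 to 2518 higher and from 0 to 2630 lower. With a library left out, Kmt2a ran from -0.0479 (without KO replicate 1) to 0.6584, Mta2 from -0.0780 (without KO replicate 1) to 0.1154 and Tex11 from -7.2235 (without KO replicate 2) to 7.6571. Mta2 turned to -0.0647 with library totals, -0.0648 with the replicate block and library totals, and -0.0025 without WT replicate 2. Nap1l4 turned to -0.0433 and -0.0463 with library totals, the latter with the block. Tex11 was -0.3845 without WT replicate 1. The cause of these changes was not tested. Dnmt3b rests on 38 to 82 counts per library, and its WT libraries differed beyond their counting intervals.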
